A study of Rattus norvegicus with 23 samples.

Results

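The enzymes of serine synthesis and of folate-bound one-carbon metabolism were followed in rat kidney cells kept at normal or acidic pH. The 10 genes were taken by symbol, with earlier results of these data known. They comprise Phgdh, Psat1 and Psph of serine synthesis, the serine hydroxymethyltransferases Shmt1 and Shmt2, and the folate enzymes Mthfd1, Mthfd2, Mthfd1l, Aldh1l1 and Aldh1l2. All 10 were present among the 30452 genes of the count table, and all 10 were among the 14777 genes that passed the filter on low counts and were tested.

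NRK-52E cells (NRKE in the labels) are an epithelial line and NRK-49F cells (NRKF) a fibroblast line, both grown from normal rat kidney. Cells of both lines were held in serum-free medium for 24 h and were then incubated for 48 h at pH 7.4 or in medium brought to pH 6.0 with hydrochloric acid. The labels name no genetic change in any group. There were n = 6 samples of NRK-52E cells at each pH, n = 6 of NRK-49F cells at pH 7.4 and n = 5 at pH 6.0. The labels divide each line into sample groups, 1 and 3 for NRK-52E and 4 and 6 for NRK-49F, without saying what a sample group is. The labels do not say whether the samples of a group came from separate cultures, so the p-values measure only the spread between these samples, which may be technical.

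Total counts per sample ranged from 16412564 to 34250535. Levels are given as FPM, counts per 1000000 counts of the TMM-scaled library, and a change as the log2 fold change of pH 6.0 against pH 7.4 with its standard error (SE). A gene was called at a Benjamini-Hochberg adjusted p under 0.05 in edgeR's quasi-likelihood test over all tested genes. The labelled cell types were checked by their markers. Of 8 fibroblast markers 7 were tested, and at pH 7.4 in edgeR 6 were higher in NRK-49F cells, among them Pdgfra at 251 to 366 FPM against 0.679 to 4.73 FPM in NRK-52E cells. The exception was Col3a1, a fibrillar collagen gene, whose mean was 6149 FPM in NRK-52E and 1212 FPM in NRK-49F cells. Of 8 epithelial markers 7 were in the table and 2 were tested. Krt7 was higher in NRK-52E cells, with means of 21.8 against 1.42 FPM, and Krt8 was lower there, with 499 against 839 FPM. Epcam, Krt18, Cldn4 and Cdh16 did not exceed 3 counts in any NRK-52E sample at pH 7.4, so that these defining epithelial markers were at or near 0 in the line labelled epithelial. The summed level of the 7 epithelial markers was 463 to 683 FPM at pH 7.4 and 200 to 265 FPM at pH 6.0 in NRK-52E cells, and 668 to 1207 FPM and 438 to 697 FPM in NRK-49F cells. The summed level of the 8 fibroblast markers moved with pH as well, from 4901 to 8102 FPM to 1830 to 3110 FPM in NRK-52E cells and from 10503 to 13509 FPM to 7341 to 9813 FPM in NRK-49F cells. Each sum rested on few genes, not on its markers as a set. Krt8 made up most of the epithelial sum in both lines. Most of the fibroblast sum was Col3a1 in NRK-52E cells, where the other tested fibroblast markers also fell. In the fibroblast line it was mostly Col1a1, Col1a2 and Col3a1, whose means fell, as did that of Pdgfrb. There the mean of Vcam1 went from 272 to 402 FPM and that of Twist1 from 77.4 to 92.3 FPM, neither called. Pdgfra had means of 306 and 304 FPM. The part of the shifts of both sums in the results below was not tested. The highest Pdgfra level of the NRK-52E samples belonged to sample A021, and without it the same number of members, 7, was called between the pH values in this line.

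Serine is made from the glycolytic intermediate 3-phosphoglycerate in 3 steps. Phgdh oxidizes it, Psat1 transfers an amino group to the product, and Psph removes the phosphate. Serine hydroxymethyltransferase, Shmt1 in the cytosol and Shmt2 in mitochondria, then splits serine into glycine and a carbon unit that is carried by tetrahydrofolate. The mitochondrial enzymes Mthfd2 and Mthfd1l turn this unit into formate, and the cytosolic Mthfd1 takes formate up again for the synthesis of purines and thymidylate. Aldh1l1 in the cytosol and Aldh1l2 in mitochondria remove the unit as carbon dioxide and give NADPH. Several of these genes are known targets of ATF4, the transcription factor of the amino acid and stress response.

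Promoter sequences are shown for 4 members that stand for the kinds of pH change described below. Psat1 changed in opposite directions in both lines, Shmt1 fell in NRK-52E cells, and Mthfd2 and Shmt2 rose in both lines. Each window holds 250 bases before and 50 after the gene's start, on the gene's own strand, as RefSeq gives it for the build GRCr8. Windows were held for 8 of the 10 members, the exceptions being Mthfd1 and Aldh1l2. All 4 genes lie on the minus strand, at chr1:222645359-222645658 for Psat1, chr10:45990292-45990591 for Shmt1, chr4:117380301-117380600 for Mthfd2 and chr7:65249518-65249817 for Shmt2. Capitals mark each match, on either strand, to the CCAAT box (CCAAT), the GC box (GGGCGG) or the E-box (CACGTG).
Psat1: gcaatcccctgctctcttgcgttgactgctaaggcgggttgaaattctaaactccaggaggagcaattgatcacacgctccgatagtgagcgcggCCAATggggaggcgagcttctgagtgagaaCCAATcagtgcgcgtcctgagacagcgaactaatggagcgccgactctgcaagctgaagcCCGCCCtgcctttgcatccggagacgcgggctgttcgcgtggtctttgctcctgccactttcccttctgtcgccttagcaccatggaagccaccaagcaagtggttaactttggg
Shmt1: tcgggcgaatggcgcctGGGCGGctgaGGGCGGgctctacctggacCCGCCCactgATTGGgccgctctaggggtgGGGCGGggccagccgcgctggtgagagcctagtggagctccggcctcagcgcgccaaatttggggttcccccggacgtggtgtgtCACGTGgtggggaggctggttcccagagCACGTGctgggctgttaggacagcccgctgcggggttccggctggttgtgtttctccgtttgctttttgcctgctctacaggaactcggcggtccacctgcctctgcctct
Mthfd2: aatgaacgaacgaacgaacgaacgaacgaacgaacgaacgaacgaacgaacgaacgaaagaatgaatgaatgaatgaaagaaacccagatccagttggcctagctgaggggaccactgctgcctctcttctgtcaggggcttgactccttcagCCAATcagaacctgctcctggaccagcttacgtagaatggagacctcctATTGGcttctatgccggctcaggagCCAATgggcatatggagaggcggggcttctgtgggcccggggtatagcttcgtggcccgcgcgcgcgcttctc
Shmt2: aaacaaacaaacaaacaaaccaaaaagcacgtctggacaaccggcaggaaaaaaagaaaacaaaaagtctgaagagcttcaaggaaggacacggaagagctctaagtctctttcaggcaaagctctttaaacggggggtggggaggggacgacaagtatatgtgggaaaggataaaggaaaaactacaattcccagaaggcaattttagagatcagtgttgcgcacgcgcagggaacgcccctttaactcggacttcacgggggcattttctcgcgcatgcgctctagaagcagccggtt

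Mthfd2 held 3 CCAAT boxes, which begin at −97, −48 and −23 relative to the start. Psat1 held 2 of them, at −155 and −125, and a GC box at −65. The annotated gene reaches 779 bases further upstream than the start used for the Psat1 window. Of the 8 members with a window, Shmt1 was the only one with an E-box, and held 2, at −89 and −61, beside 4 GC boxes and a CCAAT box. Shmt2 matched none of these motifs. Among all 33469 promoter windows of the same length, 37.5% held a CCAAT box, 33.1% a GC box and 6.42% an E-box. The core of the C/EBP-ATF response element (TGATGNAAN), to which ATF4 binds, was found in none of the 8 windows and in 3.97% of all windows, and the cyclic AMP response element (TGACGTCA) in none of the 8 and in 1.83% of all. No match overlapped another in the windows shown. A match of these letters is a description of the window and not a binding site, and elements outside it were not searched.

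In NRK-52E cells, the mitochondrial enzymes Shmt2 and Mthfd2 rose at pH 6.0, while their cytosolic counterparts Shmt1 and Mthfd1, and Psat1 of serine synthesis, fell. Of the 10 members, 4 were called higher at pH 6.0, namely Shmt2, Mthfd2, Aldh1l1 and Aldh1l2, and 3 lower, namely Psat1, Shmt1 and Mthfd1. Over all tested genes, 24.7% were called higher and 36.6% lower in this line, so that calls were frequent in general. Aldh1l1 and Aldh1l2 were at or near 0 in this line at pH 7.4, and neither passed the filter on low counts when the line was filtered alone, so their calls carry no weight in the counts. Without them 2 of 8 members were higher and 3 lower. The median log2 fold change of the members was 0.21, also with Aldh1l1 and Aldh1l2 set to their lower bounds, against −0.12 over all tested genes. By compartment, 3 of the 4 mitochondrial enzymes rose and none fell in edgeR, with no fall at an unadjusted p under 0.05 either, and 1 of the 6 cytosolic enzymes rose while 3 fell. Without Aldh1l1 and Aldh1l2, 2 of 3 mitochondrial enzymes rose, and of 5 cytosolic enzymes 3 fell.

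In NRK-49F cells, no member was called lower and 5 were called higher at pH 6.0, namely Psat1, Shmt2, Mthfd2, Mthfd1l and Aldh1l2. These were all 4 mitochondrial enzymes and, of the 6 cytosolic ones, Psat1. Over all tested genes, 14.5% were called higher and 14.4% lower. The number of members that fell was 0 in edgeR at the adjusted threshold, 0 at an unadjusted p under 0.05 and 0 in DESeq2. With this line fitted alone 1 fell, Shmt1, with a log2 fold change of −0.22 (edgeR adjusted p = 0.0495). The members' median log2 fold change was 0.48, and that of all tested genes was 0. In these bulk samples, fewer cells of a kind and less RNA per cell cannot be told apart.

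**Figure D1:**
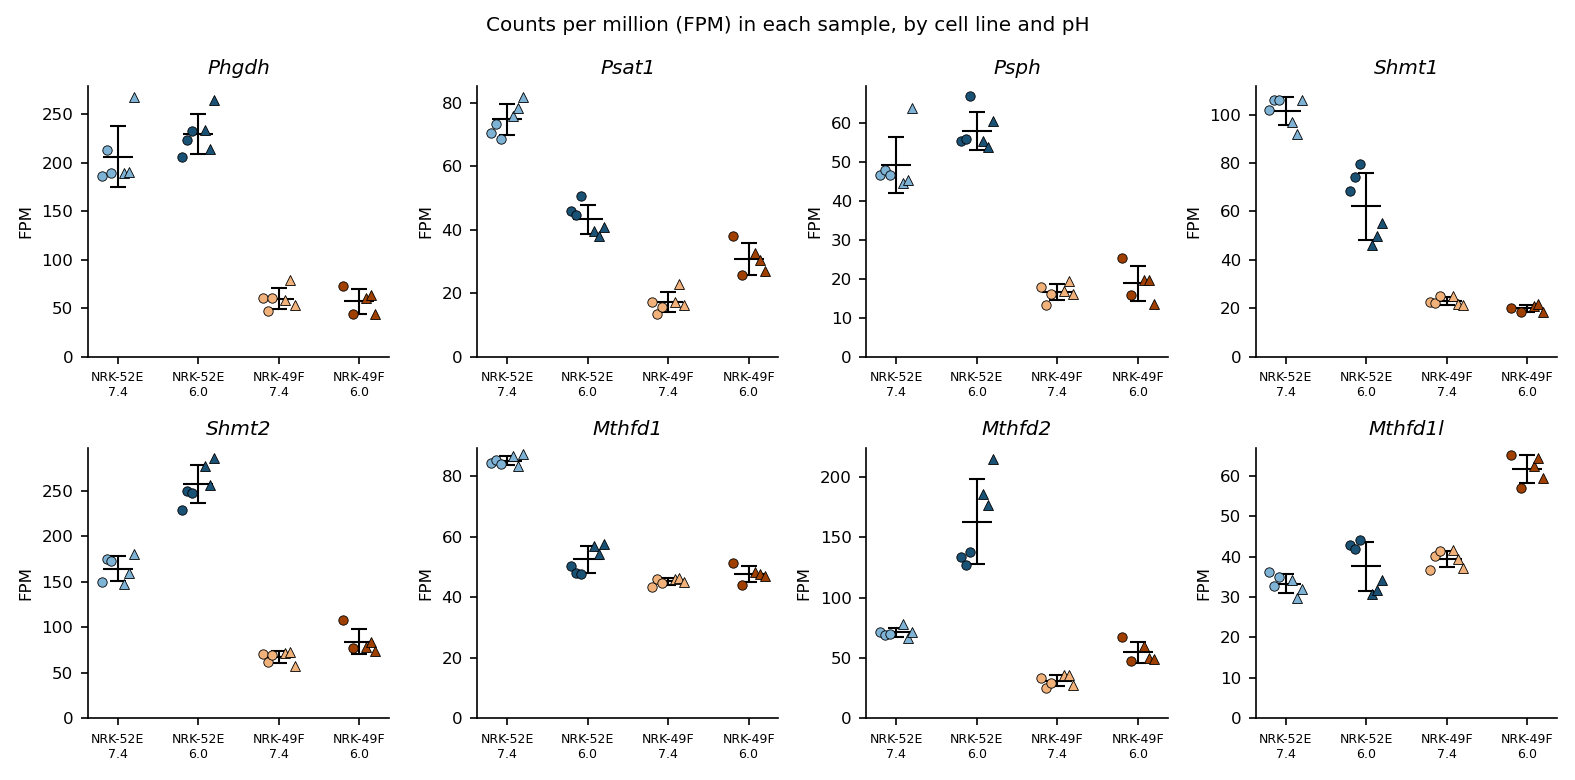
Level in FPM (vertical axes, from 0) of 8 members in every sample of NRK-52E and NRK-49F cells at pH 7.4 and pH 6.0. Circles are samples of sample groups 1 and 4, triangles those of groups 3 and 6, and black lines give the mean and SD of a group (n = 6, and n = 5 for NRK-49F cells at pH 6.0). Psat1 drops from 74.7 to 43.3 FPM in NRK-52E cells and rises from 17.2 to 30.8 FPM in NRK-49F cells, while Mthfd2 rises in both.

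Phgdh (ENSRNOG00000019328, chromosome 2), which catalyses the first and committed step of serine synthesis, was not called in either line. In NRK-52E cells its level ranged from 186 to 268 FPM at pH 7.4 (median 191) and from 206 to 265 FPM at pH 6.0 (median 229), so that the samples overlapped. The log2 fold change was 0.15 (SE 0.128, edgeR adjusted p = 0.312), with a 95% interval from −0.11 to 0.42. When NRK-52E cells were fitted alone it was 0.24 and passed the threshold (edgeR adjusted p = 0.0445). In NRK-49F cells the level was 47.6 to 79.3 FPM at pH 7.4 (median 59.8) and 73.3, 44.1, 60.7, 64.2 and 43.9 FPM in the 5 samples at pH 6.0. Here the log2 fold change was −0.07 (edgeR adjusted p = 0.754), with a 95% interval from −0.35 to 0.21.

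Psat1 (ENSRNOG00000013971, chromosome 1), the aminotransferase of the second step, moved in opposite directions. In NRK-52E cells it ranged from 68.5 to 81.8 FPM at pH 7.4 (median 74.5) and from 38.1 to 50.5 FPM at pH 6.0 (median 42.8). All NRK-52E samples at pH 6.0 lay below all those at pH 7.4, with a log2 fold change of −0.79 (SE 0.108, edgeR adjusted p = 1.06e-06). In NRK-49F cells the level was 13.6 to 22.9 FPM at pH 7.4 (median 16.8) and 38.1, 25.7, 32.6, 30.6 and 26.9 FPM at pH 6.0. All NRK-49F samples at pH 6.0 lay above those at pH 7.4, with a log2 fold change of 0.84 (SE 0.114, edgeR adjusted p = 4.92e-06).

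Psph (ENSRNOG00000000925, chromosome 12), the phosphatase that releases serine, did not pass the threshold in either line. In NRK-52E cells it ranged from 44.6 to 63.7 FPM at pH 7.4 (median 46.6) and from 53.7 to 66.7 FPM at pH 6.0 (median 55.6). Apart from sample A035 at 63.7 FPM, the pH 7.4 samples reached at most 47.8 FPM and lay below those at pH 6.0. The log2 fold change was 0.24 (SE 0.12, edgeR adjusted p = 0.0903), with a 95% interval from −0.01 to 0.49, and it was 0.32 without A035 (edgeR adjusted p = 0.0182). The call was also made with RLE scaling (adjusted p = 0.0459), in DESeq2 (adjusted p = 0.0377) and with this line fitted alone (adjusted p = 0.0076). In NRK-49F cells the log2 fold change was 0.18 (edgeR adjusted p = 0.333), with a 95% interval from −0.09 to 0.44.

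Shmt1 and Shmt2 encode the cytosolic and the mitochondrial form of the same enzyme. Shmt1 (ENSRNOG00000005275, chromosome 10) ranged from 92.1 to 106 FPM in NRK-52E cells at pH 7.4 (median 104) and from 46.0 to 79.4 FPM at pH 6.0 (median 61.9). The groups did not overlap, and the log2 fold change was −0.70 (SE 0.106, edgeR adjusted p = 3.72e-06). The NRK-49F samples ranged from 21.3 to 25 FPM at pH 7.4 (median 22.5) and were at 20.0, 18.6, 21, 21.8 and 18.4 FPM at pH 6.0, with overlap between the groups. The log2 fold change there was −0.21 (edgeR adjusted p = 0.187), with a 95% interval from −0.44 to 0.03. With NRK-49F cells fitted alone it was −0.22 and passed the threshold (edgeR adjusted p = 0.0495).

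Shmt2 (ENSRNOG00000008106, chromosome 7) went the other way in NRK-52E cells. It ranged from 148 to 181 FPM at pH 7.4 (median 167) and from 229 to 286 FPM at pH 6.0 (median 253), with no overlap and a log2 fold change of 0.65 (SE 0.0891, edgeR adjusted p = 1.15e-06). NRK-49F cells had 57.7 to 73.0 FPM at pH 7.4 (median 69.8) and 108, 77.4, 78.5, 83.4 and 73.4 FPM at pH 6.0. The groups did not overlap there either, and the log2 fold change was 0.32 (SE 0.0936, edgeR adjusted p = 0.0119). Sample A042, the one at 108 FPM, bore on this call, since the log2 fold change was 0.22 without it (edgeR adjusted p = 0.0615).

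**Figure D2:**
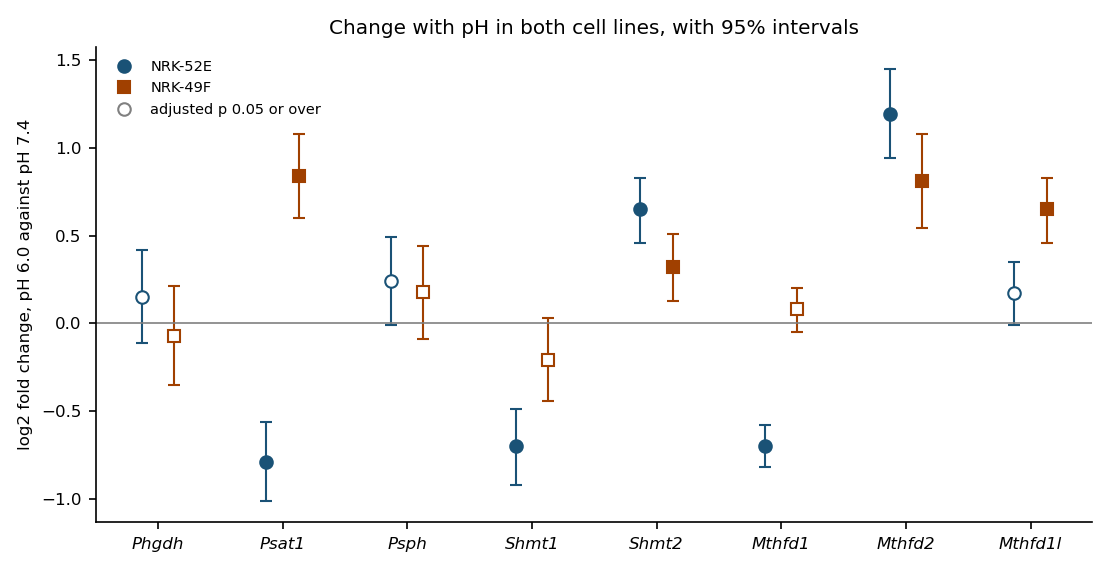
log2 fold change of pH 6.0 against pH 7.4 (vertical axis) for 8 members in NRK-52E (circles) and NRK-49F cells (squares), with 95% intervals, filled where the adjusted p is under 0.05. Psat1 lies at −0.79 and 0.84, Shmt1 and Mthfd1 lie at −0.70 in NRK-52E cells and, unfilled, at −0.21 and 0.08 in NRK-49F cells, and Shmt2 and Mthfd2 are above 0 in both lines.

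Of the folate enzymes, Mthfd1 fell and Mthfd2 rose in NRK-52E cells. Mthfd1 (ENSRNOG00000005602, chromosome 6), the cytosolic enzyme with 3 activities, ranged from 83.3 to 87.2 FPM in NRK-52E cells at pH 7.4 (median 84.7) and from 47.6 to 57.6 FPM at pH 6.0 (median 52.3). The groups lay far apart relative to their spread, and the log2 fold change was −0.70 (SE 0.0593, edgeR adjusted p = 5.69e-10). Levels in NRK-49F cells were 43.5 to 46.3 FPM at pH 7.4 (median 45.4) and 51.2, 44.0, 48.3, 47.6 and 47.1 FPM at pH 6.0. The log2 fold change was 0.08 (edgeR adjusted p = 0.398) and the 95% interval ran from −0.05 to 0.2.

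Mthfd2 (ENSRNOG00000010833, chromosome 4), the mitochondrial dehydrogenase and cyclohydrolase, showed the largest fold change among the 8 members above 10 FPM in NRK-52E cells. It ranged there from 66.3 to 78.4 FPM at pH 7.4 (median 70.7) and from 127 to 215 FPM at pH 6.0 (median 158), with a log2 fold change of 1.19 (SE 0.123, edgeR adjusted p = 1.39e-08). The fibroblasts ranged from 25.5 to 36.3 FPM at pH 7.4 (median 31.1) and were at 67.7, 47.8, 59.8, 49.6 and 49.0 FPM at pH 6.0. Their log2 fold change was 0.81 (SE 0.129, edgeR adjusted p = 3.88e-05), and the groups did not overlap in either line.

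Mthfd1l (ENSRNOG00000019582, chromosome 1), the mitochondrial synthetase that releases formate, ranged from 29.8 to 36.2 FPM in NRK-52E cells at pH 7.4 (median 33.5) and from 30.7 to 44.2 FPM at pH 6.0 (median 38). Its log2 fold change of 0.17 (SE 0.0869, edgeR adjusted p = 0.0874) did not pass the threshold, although it did with RLE scaling (adjusted p = 0.0334), in DESeq2 (adjusted p = 0.0236) and with this line fitted alone (adjusted p = 0.0383). In NRK-49F cells it ranged from 36.8 to 41.6 FPM at pH 7.4 (median 39.8) and was 65.2, 56.9, 62.4, 64.4 and 59.5 FPM at pH 6.0. The groups were far apart there, with a log2 fold change of 0.65 (SE 0.0903, edgeR adjusted p = 6.8e-06).

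The 10-formyltetrahydrofolate dehydrogenases were the members with the fewest counts. Aldh1l1 (ENSRNOG00000047023, chromosome 4) had 1 count in 1 of the 6 NRK-52E samples at pH 7.4 and 0 in the others. At pH 6.0 it had between 9 and 34 counts in each of 6 samples, which is 0.492 to 1.70 FPM (median 0.993). Against the level of 3 counts at pH 7.4, 0.138 FPM on average over the samples, it was at least 7.26-fold higher. This fold is a description, since the gene could pass the filter on low counts only through the groups where it is high. In NRK-49F cells it ranged from 0.035 to 0.744 FPM at pH 7.4 (median 0.515) and was 0.815, 1.77, 0.185, 0.722 and 0.667 FPM at pH 6.0, with overlap between the groups. The log2 fold change there was 0.87 (edgeR adjusted p = 0.203), with a 95% interval from −0.15 to 1.9.

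Aldh1l2 (ENSRNOG00000008586, chromosome 7) was at 0 counts in all 6 NRK-52E samples at pH 7.4. At pH 6.0 it was above 3 counts in 4 of 6 samples, with 9, 0, 5, 15, 5 and 1 counts, and the median was 0.211 FPM. Its mean of 0.289 FPM was at least 2.09-fold higher than the level of 3 counts, and 1 sample at pH 6.0 was also at 0. This too is a description, since the gene passed the filter through NRK-49F cells. In NRK-49F cells it ranged from 3.38 to 4.85 FPM at pH 7.4 (median 4.47) and was 12.2, 7.07, 7.71, 7.11 and 7.72 FPM at pH 6.0, without overlap. The log2 fold change was 0.96 (SE 0.322, edgeR adjusted p = 0.0318). Without sample A042, the one at 12.2 FPM, it was 0.78 (edgeR adjusted p = 0.0997), and leaving out each of A039, A041, A051, A052 and A054 also took the adjusted p to between 0.0507 and 0.0618.

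**Figure D3:**
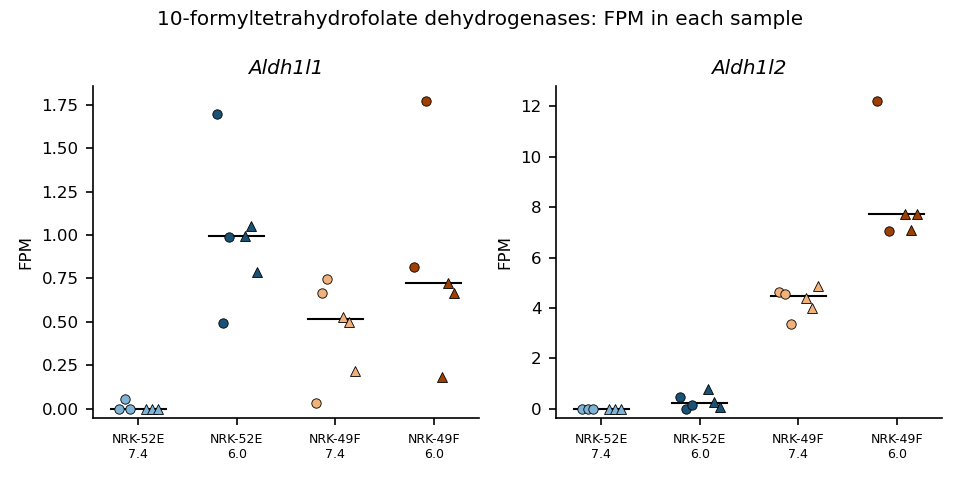
Level in FPM (vertical axes) of Aldh1l1 and Aldh1l2 in every sample of both lines at pH 7.4 and pH 6.0. Circles are samples of sample groups 1 and 4, triangles those of groups 3 and 6, and the line is the median. The NRK-52E samples at pH 7.4 lie at or near 0, with 0.0538 FPM as the highest value of Aldh1l1 and 0 throughout for Aldh1l2.

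The difference between the pH changes of both lines was tested directly, as the change in NRK-52E minus that in NRK-49F cells. Of the 10 members 7 were called for it, or 5 of 8 without Aldh1l1 and Aldh1l2, against 41.4% of all tested genes. The difference was −1.63 for Psat1 on the log2 scale (edgeR adjusted p = 2.44e-08), −0.77 for Mthfd1 (adjusted p = 1.76e-07), −0.50 for Shmt1 (adjusted p = 0.0121) and −0.47 for Mthfd1l (adjusted p = 0.00398). In sample groups 1 and 4 alone the difference of Shmt1 was −0.22 and not past the threshold (edgeR adjusted p = 0.302). For Shmt2 it was 0.33 (adjusted p = 0.0466), a call that was lost in 17 of 33 alternatives, among them leaving out A021 (0.30, adjusted p = 0.0761). For Aldh1l2 the sizes of the rises cannot be ordered between the lines from these counts. It rose 1.94-fold in NRK-49F cells, against a lower bound of 2.09-fold in NRK-52E cells. The fold of Aldh1l1 was 1.83 in NRK-49F cells, where it was not called, against a lower bound of 7.26 in NRK-52E cells. These folds are a description, since both genes passed the filter only through groups where they are high. In sample groups 1 and 4 alone neither gene kept its call for the difference (edgeR adjusted p = 0.0804 for Aldh1l1 and 0.145 for Aldh1l2). For Mthfd2 the difference was 0.39 (adjusted p = 0.0867), for Phgdh 0.22 (adjusted p = 0.369) and for Psph 0.06 (adjusted p = 0.817). The median difference of the members was 0.14, or 0.08 with Aldh1l1 and Aldh1l2 at their bounds, against −0.09 over all tested genes.

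Between the lines at pH 7.4, 7 members were higher in NRK-52E cells and 3 lower, while 35% of all tested genes were higher and 33.9% lower. Aldh1l1 and Aldh1l2 passed the filter only through groups where they are high, so their calls carry no weight here either. Without them 7 of 8 members were higher and 1 lower. The members' median difference was 1.24 on the log2 scale, against 0.02 over all tested genes. The whole serine synthesis branch was higher in NRK-52E cells, by 1.78 for Phgdh (SE 0.132, edgeR adjusted p = 1.46e-11), 2.12 for Psat1 (SE 0.112, adjusted p = 2.92e-14) and 1.56 for Psph (SE 0.124, adjusted p = 5.25e-11). Shmt1 was higher by 2.14, Shmt2 by 1.29, Mthfd2 by 1.19 and Mthfd1 by 0.91, each without overlap between the lines. Mthfd1l was slightly lower in NRK-52E cells, with a difference of −0.24 (SE 0.0868, edgeR adjusted p = 0.0175). For the dehydrogenases only a description is given. The NRK-49F mean was at least 31.1-fold for Aldh1l2 and at least 3.25-fold for Aldh1l1 above the level of 3 counts in NRK-52E cells. The Aldh1l1 samples overlapped between the lines, with A039 of NRK-49F at 0.035 FPM and A022 of NRK-52E at 0.0538 FPM.

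At pH 6.0, 7 members were again higher in NRK-52E cells and 2 lower, with 36.6% of all tested genes higher and 38.9% lower. Without Aldh1l1 and Aldh1l2, 7 of 8 members were higher and 1 lower. The median difference of the members was 1.03, against −0.02 over all tested genes. The difference for Psat1 was 0.49 (SE 0.114, edgeR adjusted p = 0.000445), and its samples at pH 6.0 overlapped between the lines. For Mthfd1 it was 0.14 (SE 0.0623, edgeR adjusted p = 0.0481), with overlap and a call that was lost in 20 of 33 alternatives. The difference of Mthfd1l was −0.71 (SE 0.0904, edgeR adjusted p = 1.42e-07) and that of Aldh1l2 −4.88 (SE 0.418, edgeR adjusted p = 2.28e-09). The value of Aldh1l2 is a description, since the gene passed the filter through NRK-49F cells. Aldh1l1 did not pass the threshold, with a difference of 0.31 (edgeR adjusted p = 0.555) and a 95% interval from −0.66 to 1.28. In order of level, Psat1 thus ran from NRK-52E at pH 7.4 over NRK-52E at pH 6.0 and NRK-49F at pH 6.0 down to NRK-49F at pH 7.4, and each neighbour in this order differed from the next by the tests above. Mthfd1l was highest in NRK-49F cells at pH 6.0. Its other 3 groups had means of 33.3 to 39.4 FPM, of which both NRK-52E groups did not differ past the threshold.

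The pH change was also taken within each sample group. In NRK-52E cells, all members called over both sample groups kept their direction in each, and the fall of Shmt1 was larger in sample group 3. At pH 6.0 it was at 68.6, 74.2 and 79.4 FPM in sample group 1 and at 46.0, 49.7 and 55.2 FPM in sample group 3, and the pH change was −0.50 in group 1 and −0.97 in group 3. The difference of −0.47 passed the threshold (SE 0.131, edgeR adjusted p = 0.0248), for this member alone of 10, with 10.6% of all tested genes called. This comparison of sample groups was chosen after the data were seen. Psat1 changed by −0.59 in group 1 and by −0.99 in group 3 (adjusted p of the difference 0.193 in edgeR), and Mthfd2 by 0.92 and 1.42 (adjusted p = 0.0953). Mthfd1l rose by 0.31 in group 1 (edgeR adjusted p = 0.00402), where its pH 6.0 samples were at 42.9, 41.9 and 44.2 FPM, and its change was 0.00 in group 3 (adjusted p = 0.983). The difference between these changes of Mthfd1l did not pass the threshold (edgeR adjusted p = 0.106).

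In NRK-49F cells, sample group 4 held only 2 samples at pH 6.0. Psat1 rose by 1.04 in group 4 and by 0.67 in group 6, Mthfd2 by 0.98 and 0.67 and Mthfd1l by 0.63 and 0.66. Shmt2 changed by 0.47 in group 4 (edgeR adjusted p = 0.0131) and by 0.21 in group 6 (adjusted p = 0.224), and Aldh1l2 by 1.20 (adjusted p = 0.0624) and 0.77 (adjusted p = 0.203). No member differed between the sample groups of NRK-49F cells in edgeR, and of all tested genes 0% were called, with 596 genes at an unadjusted p under 0.05 and with RLE scaling no member was called either.

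**Figure D4:**
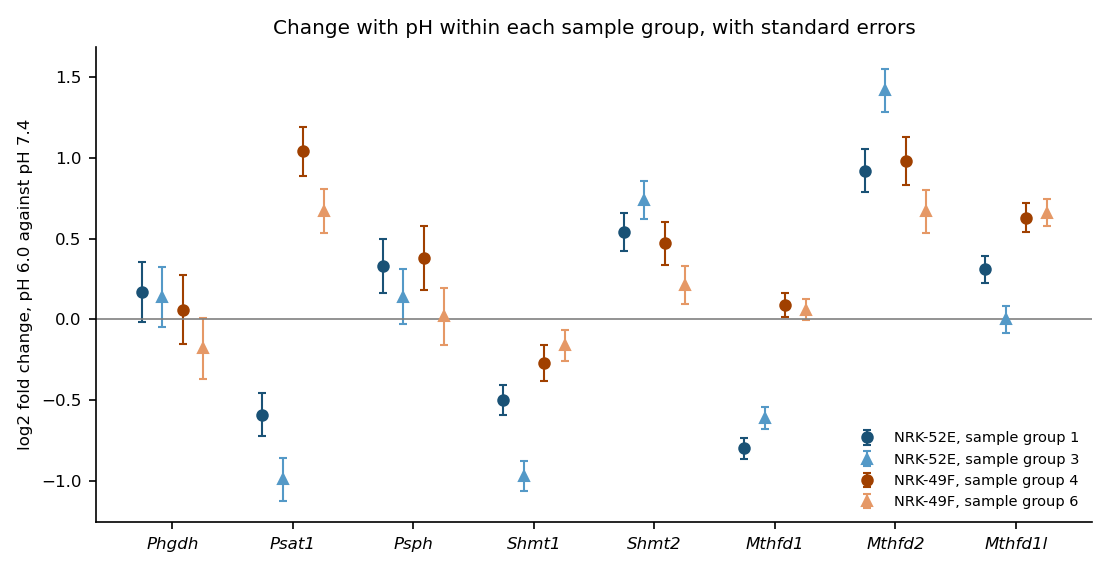
log2 fold change of pH 6.0 against pH 7.4 (vertical axis) for 8 members within each sample group, with standard errors (n = 3 per pH and sample group, n = 2 for sample group 4 at pH 6.0). The signs of Psat1, Shmt1, Shmt2, Mthfd1 and Mthfd2 are shared by both sample groups of a line, and Shmt1 lies at −0.50 and −0.97 in the NRK-52E groups.

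Serine and folate reach the mitochondria through carriers in the inner membrane. In NRK-52E cells 2 of 4 rose and 1 fell. Sfxn1, the mitochondrial serine transporter, went from a mean of 16.2 FPM at pH 7.4 to 48.8 FPM at pH 6.0, a log2 fold change of 1.59 (SE 0.115, edgeR adjusted p = 4e-11). Slc25a32, the mitochondrial folate transporter, rose by 1.19, and Sfxn3, a relative of Sfxn1, fell by 1.25. In NRK-49F cells Sfxn1 rose by 0.86 and Sfxn2 fell by 0.61, while Slc25a32 had a change of 0.10 (edgeR adjusted p = 0.439).

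Of the 4 genes of the glycine cleavage system, which breaks glycine down in mitochondria and yields a further carbon unit, 2 rose in NRK-52E and 1 in NRK-49F cells, and none fell in either by edgeR. Amt, its aminomethyltransferase, rose by 0.84 in NRK-52E and by 0.71 in NRK-49F cells. Dld, the other gene that rose in NRK-52E cells, did so by 0.20 with overlap between the pH values (edgeR adjusted p = 0.0353). Gldc was near 0 in NRK-52E cells, with means of 0.114 FPM at pH 7.4 and 0.0631 FPM at pH 6.0. A change of Gldc could therefore hardly be called in that line. Among 14 other folate enzymes and folate carriers, 13 were tested, of which 3 rose and 4 fell in NRK-52E cells, and 3 rose and 3 fell in NRK-49F cells. The proton-coupled folate transporter gene Slc46a1 fell in both lines, by 1.96 and 0.78.

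Of 9 genes of the methionine cycle and transsulfuration, 6 were tested, and 2 rose and 1 fell in NRK-52E cells while 3 rose and 2 fell in NRK-49F cells. Mtr, methionine synthase, rose by 1.34 and 1.06, respectively. Ahcy, which clears S-adenosylhomocysteine, fell by 0.42 in NRK-52E cells and rose by 0.61 in NRK-49F cells. Cth, cystathionine gamma-lyase, fell by 0.30 in NRK-49F cells. Of 8 genes of serine use and breakdown, 3 rose and none fell in NRK-52E cells in edgeR, with Sds, serine dehydratase, rising by 1.19. In NRK-49F cells 1 of them rose, Gcat by 0.86, and 2 fell, of which Sdsl had a mean of 0.825 FPM at pH 7.4 and 0.269 FPM at pH 6.0.

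**Figure D5:**
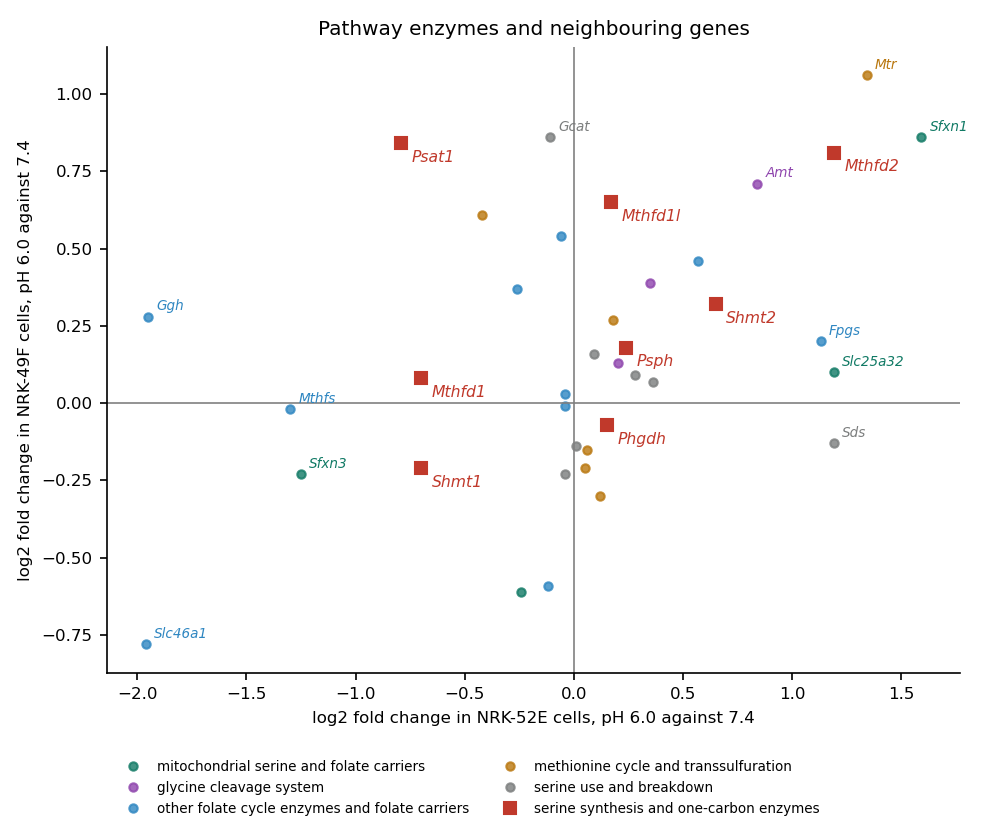
log2 fold change of pH 6.0 against pH 7.4, with NRK-52E cells on the horizontal and NRK-49F cells on the vertical axis. Red squares are 8 members and dots 30 neighbouring genes that reached a group mean of 1 FPM in each line. Mthfd2, Sfxn1, Amt and Mtr lie to the upper right, and Psat1 to the upper left.

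ATF4 and 7 of its target genes outside the pathway were set beside the members. In NRK-52E cells 6 of these 8 rose and 1 fell, and in NRK-49F cells 4 rose and none fell in edgeR. Trib3, a pseudokinase gene induced by ATF4, rose by 2.58 in NRK-52E and by 1.72 in NRK-49F cells. Vldlr, a lipoprotein receptor gene, fell by 0.76 in NRK-52E cells. Atf4 itself went from 688 to 1150 FPM in NRK-52E cells, a log2 fold change of 0.74 (SE 0.112, edgeR adjusted p = 4.32e-06), and its change in NRK-49F cells was 0.30 (SE 0.116, edgeR adjusted p = 0.0594).

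Genes of cycling cells, whose demand for carbon units is high, were mostly lower at pH 6.0 in NRK-52E cells where they were called, and higher in NRK-49F cells. Of 12 such genes, 1 rose and 7 fell in NRK-52E cells, and 5 rose and none fell in NRK-49F cells in edgeR. Their summed level was 380 to 494 FPM at pH 7.4 and 295 to 379 FPM at pH 6.0 in NRK-52E cells, and 498 to 614 FPM and 619 to 863 FPM in NRK-49F cells, without overlap in either line. Mki67, the proliferation marker, fell by 1.46 in NRK-52E cells, whereas Cdk1, the mitotic kinase gene, rose by 1.36, and Ccnb1, its cyclin partner, rose by 0.91 in NRK-49F cells. Psat1, Shmt1 and Mthfd1 fell in NRK-52E cells beside this sum, and its part in their change was not tested.

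The genes whose pattern lay closest to each member were sought among 10057 genes whose mean level was 5 FPM or more. Likeness was measured by the root mean square difference of centred log2 levels (FPM plus 0.5) over the 23 samples, which share library and depth, and it is a description without a test. Atf4 lay closest to Shmt2, at 0.100, followed by Sars1, the cytosolic seryl-tRNA synthetase gene, at 0.134. Gars, the glycyl-tRNA synthetase gene, lay closest to Mthfd2 at 0.200, followed by Amn1 at 0.225. The closest genes were Mmadhc and Pccb for Phgdh, Ugt1a3 and Serpini1 for Psat1, Maged2 and Nae1 for Psph, and Gm2a and Nectin2 for Shmt1. They were Nbn and Dcaf15 for Mthfd1, Nucb1 and Usp11 for Mthfd1l, Mast2 and Rnf157 for Aldh1l1, and Mocos and Plcd4 for Aldh1l2. Among the members themselves, Phgdh and Psph were most alike, at 0.198, and Mthfd2 lay closest to Shmt2, at 0.295.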

How the data were processed

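Poly(A) RNA of 23 samples of NRK-52E and NRK-49F cells was sequenced in read pairs. The deposited values are raw counts per gene, which the authors made by mapping with HISAT2 (2.1.0 in the submitters' processing notes) and counting on exons by featureCounts. Multi-mapping reads were counted, and nothing was normalized. Reads shared with near-identical genes can therefore be counted more than once, and the strand setting is not given in the sources used here. The paper's methods name the genome build rn7 and the processing notes rn6. Gene coordinates were therefore not taken from the table. Of its columns, 13 match no sample label and were left out, and human samples were not analysed here.

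Groups follow the labels. Counts of all 23 samples entered a single model with 4 conditions in edgeR 4.0.16 (limma 3.58.1, R 4.3.3), after filterByExpr (minimum count 10, minimum total 15) and TMM scaling. The quasi-likelihood test gave p-values, which were adjusted over all 14777 tested genes by Benjamini-Hochberg, with a threshold of 0.05. The SE is the absolute log2 fold change divided by the square root of F, and 95% intervals use the t quantile. Depth was 16412564 to 34250535 counts per sample. Lower bounds of folds were taken against the level of 3 counts, which covers counting error only, and levels are shown without a floor. Replicates of a group differed by more than sampling noise. Members are named throughout, with, from each list of neighbouring genes, the called gene of the largest rise and of the largest fall in each line, and the 2 genes nearest to each member. Ahcy in the second line, Slc25a32, Dld, Gldc, Atf4 and the marker genes were named after their values were seen. A few genes taken by this rule are counted within their list and not reported singly. The members and the lists were chosen with earlier results of these data known. The search for CCAAT boxes, GC boxes and cyclic AMP response elements was added after the data were seen. So was the test of the difference of the pH change between the sample groups of a line.

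Alternatives were RLE and upper quartile scaling, DESeq2 1.42.0, an adjusted p under 0.01, 2 other filters, each line or sample group alone, the sample group as a block, and each sample left out. The plots were made in matplotlib 3.10.9 under Python 3.11.15.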

Additional observations from a re-analysis of the deposited data

Results flagged for a closer look

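Among 39 combinations of a member and a group, 4 had a sample that stood apart from the others of its group, where chance alone flags about 1 in 20. In NRK-52E cells at pH 7.4, sample A035 was highest for Phgdh, at 268 FPM, and for Psph, at 63.7 FPM. In the same group, sample A022 held the single count of Aldh1l1, which is 0.0538 FPM. The other samples of that group had 0 counts, so this flag follows from the single count and the rate of 1 in 20 does not apply. In NRK-49F cells at pH 6.0, sample A042 was highest for Aldh1l2, at 12.2 FPM.

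Aldh1l1 and Aldh1l2 apart, the change with pH differed between the lines for 5 of 8 members, by the test of the difference itself. Over all tested genes, 41.4% were called for it. On the log2 scale, as the change in NRK-52E minus that in NRK-49F cells, the difference was −1.63 for Psat1, −0.50 for Shmt1, 0.33 for Shmt2, −0.77 for Mthfd1 and −0.47 for Mthfd1l. For Aldh1l1 the edgeR adjusted p was 0.00024 and for Aldh1l2 0.00456. These calls carry no weight and no fold is given, since both genes were at or near 0 in NRK-52E cells at pH 7.4. In sample groups 1 and 4 alone these calls were lost (edgeR adjusted p = 0.0804 and 0.145). Within NRK-52E cells, the change of Shmt1 differed between the sample groups, by −0.47 in sample group 3 minus group 1. It was 1 of 10 members called in this comparison, with 10.6% of all tested genes called.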

How the results depend on the processing

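Over single members, 1577 of 1658 values under an alternative kept their direction and their side of the threshold, 56 lost the call and 17 gained it. The sign turned in 8, which were called in neither setting. In sample groups 1 and 4 alone these were the change of Phgdh in NRK-49F cells (0.059), the difference of the pH change of Psph (−0.041) and Mthfd2 (−0.052), and the difference of Aldh1l1 between the lines at pH 6.0 (−0.281). Leaving out 1 sample at a time, the change of Phgdh in NRK-49F cells ran from −0.172 to 0.028 and the difference of Psph from −0.040 to 0.189. A filter of at least 10 counts in every sample removed Aldh1l1 and Aldh1l2, which left 2 members higher in NRK-52E cells, 1 higher for the difference of the pH change, and 1 lower in NRK-52E than in NRK-49F cells at pH 7.4 and 1 at pH 6.0. With NRK-52E cells filtered and fitted alone both genes were removed as well, and the 5 members called higher were Phgdh, Psph, Shmt2, Mthfd2 and Mthfd1l. In NRK-49F cells, 3 members were called, all 3 higher, at an adjusted p under 0.01 and in sample groups 3 and 6 alone, and with each line alone 1 fell, Shmt1 (adjusted p = 0.0495 in edgeR). For the difference of the pH change, sample groups 1 and 4 alone called 2 members, of which 0 were higher and 2 lower, and sample groups 3 and 6 alone called 8, of which 4 were higher and 4 lower. In groups 1 and 4 the values were smaller than over all samples, at −0.22 for Shmt1, 0.085 for Shmt2 and −0.31 for Mthfd1l. Leaving out 1 sample at a time gave 3 to 5 calls and 3 to 5 higher members in NRK-49F cells, with 3 without A042, and 6 to 8 calls for the difference, 2 to 4 of them higher. No paired analysis was possible because the replicate codes are not shared between the groups. With sample group as a block, 8 members were called in NRK-52E cells, Mthfd1l being added (adjusted p = 0.0457 in edgeR), and no other call changed. Each sample group lies within 1 line, so the block cannot adjust a difference between the lines. The cause of these changes was not tested. Aldh1l1 and Aldh1l2 in NRK-52E cells rest on few counts.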
